A study of Drosophila melanogaster with 4 samples.

Results

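The replication-independent histone variants of Drosophila melanogaster are His2Av, His3.3A, His3.3B and His4r, and 3 of these 4 genes were measured, each by 1 probe, out of 11173 genes with a value on all 4 arrays. A probe was taken as a member when the platform annotation gave it a single gene symbol that is one of these names, with the current symbol found through the gene identifier. No probe was named for His3.3A here. The genes were chosen by their measured values, because 2 of them, His2Av and His3.3B, lay far from 0 in the comparison of the precipitates, so their values in it are given as a description without a test.

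The series looked for messenger RNAs bound by the SR protein B52 in the developing eye. Larvae of the third instar carried either GFP-B52 or, as the control, GFP-NLS, which is GFP with a nuclear localisation signal, in both cases crossed to the GMR driver. GMR acts mainly in the differentiating cells of the eye disc, so the tagged protein came from part of the dissected tissue only, whereas each pool was made from the front parts of 600 animals. Both groups went through the same anti-GFP precipitation, and polyadenylated RNA from the precipitates was compared on two-colour arrays, with 2 replicates and both dye orientations of each. The arrays are called B52-Cy5 and B52-Cy3 after the dye of the RNA from the GFP-B52 larvae. Neither larval age in hours nor strain background is given by the labels. The arrays hold ratios and no levels, so the tissue could not be checked by marker genes. More RNA bound per cell cannot be told apart from more of that RNA per cell or more cells of a type in a pool.

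Histones package DNA into nucleosomes, and most of them are made during S phase from clustered gene copies whose messenger RNAs end in a stem-loop in place of a poly(A) tail. The variants are encoded by single genes outside that cluster, are transcribed throughout the cell cycle and in cells that no longer divide, and have polyadenylated messenger RNAs. His2Av is the only H2A variant of the fly and serves in gene regulation and in the response to DNA breaks. His3.3A and His3.3B encode the same H3.3 protein, which is placed on active genes without replication, and His4r encodes the same H4 protein as the clustered genes. Protein and promoter sequences were not used here, nor were probe sequences, so whether the His3.3B probe also binds His3.3A RNA, or the His4r probe RNA of the clustered His4 copies, was not analysed.

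The deposited values are log ratios, and the sources used here give neither their log base nor their direction. Each array was centred on its median, and the B52-Cy5 arrays were multiplied by -1. Positive values are thus those of the side on which B52 probe 13309 lay, at 0.47 ± 0.05 (SD, n = 2), and negative values those of the other side. On a reading of the columns as Cy5 over Cy3, negative values would stand for more RNA in the GFP-B52 precipitate, and on a reading as Cy3 over Cy5 for more in the GFP-NLS precipitate; the files do not settle which. The other B52 probes with values on all arrays had means between -0.33 and 0.13, and each had arrays on both sides of 0. The lowest, probe 4048, stood at -1.05 on the B52-Cy3 array of replicate 2 and between -0.16 and 0.04 on the others. Across 13963 probes as deposited, the B52-Cy5 and B52-Cy3 arrays had r = 0.608 in replicate 1 and r = -0.167 in replicate 2. A change of sign with the dyes and nothing else would make r negative in both replicates. A fixed ratio of the precipitates and nothing else would make r positive in both. A dye bias that differs between probes would raise r on a dye ratio, so r does not settle the reading. The labels do not say whether the replicates came from separate larvae, so any spread between them may be technical, and 4 arrays limit the precision of every value.

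His3.3B and His2Av lay far below 0, on the side opposite to B52 probe 13309, in both replicates and both dye orientations, while His4r lay below 0 by less. The means were -0.38 ± 0.14 for His3.3B, -0.32 ± 0.04 for His2Av and -0.09 ± 0.03 log units for His4r (SD, n = 2 each). All 3 measured variants were below 0 on all 4 arrays, as were 8.04% of all probes. Since the genes were taken from this same comparison, that count only describes them.

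The probe for His3.3B, gene CG8989 on the X chromosome, gave 0.33 and 0.43 as deposited on the B52-Cy5 arrays and -0.22 and -0.52 on the B52-Cy3 arrays, for replicates 1 and 2 in that order. The sign changed with the dye orientation in each replicate. After centring and turning, the arrays of replicate 1 lay at -0.32 and -0.23 and those of replicate 2 at -0.43 and -0.52, with the B52-Cy5 array named first. Both arrays of replicate 2 thus lay lower than both of replicate 1, and the replicate means were -0.27 and -0.48. The mean is a difference of 2.37-fold on a log10 reading and of 1.30-fold on a log2 reading.

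The probe for His2Av, gene CG5499 on chromosome arm 3R, gave 0.34 and 0.29 as deposited on the B52-Cy5 arrays and -0.25 and -0.39 on the B52-Cy3 arrays. The turned values were -0.33 and -0.25 in replicate 1 and -0.29 and -0.40 in replicate 2. Here the arrays of the replicates overlapped, and the replicate means of -0.29 and -0.34 were close. The mean corresponds to 2.08-fold on a log10 reading and to 1.25-fold on a log2 reading.

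His4r, gene CG3379 on chromosome arm 3R, was the weakest of the 3, with deposited values of 0.13 and 0.06 on the B52-Cy5 arrays and -0.007 and -0.18 on the B52-Cy3 arrays. Turned, the arrays of replicate 1 lay at -0.12 and -0.01 and those of replicate 2 at -0.05 and -0.18. One array thus stood next to 0, and the replicate means were -0.07 and -0.12. The mean corresponds to 1.24-fold on a log10 reading and to 1.07-fold on a log2 reading.

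**Figure D1:**
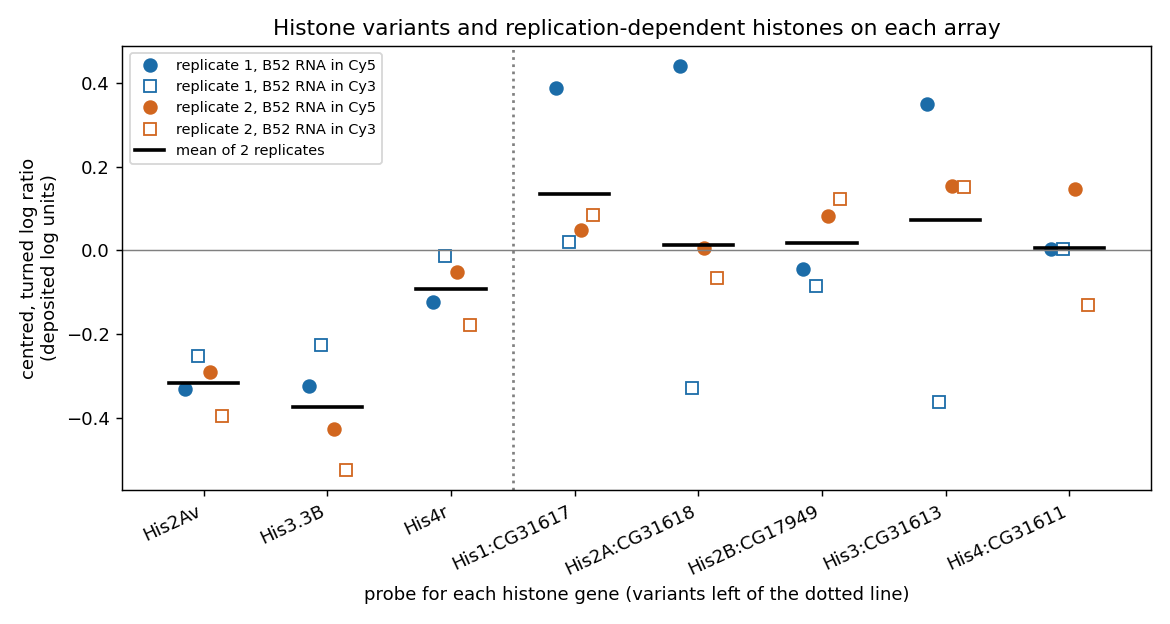
Centred and turned log ratios, in deposited log units on the vertical axis, for the probe of each measured histone gene; filled circles are B52-Cy5 arrays, open squares B52-Cy3 arrays, blue is replicate 1, orange replicate 2, and black bars are means of the 2 replicates. All points of His2Av, His3.3B and His4r lie below 0, while the points of 4 of the 5 replication-dependent histone genes lie on both sides of it.

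From the lowest mean upward, the order was His3.3B, His2Av and His4r. The first pair did not keep an order across replicates, as His2Av minus His3.3B was -0.02 in replicate 1 and 0.13 in replicate 2. His4r lay nearer to 0 than both in each replicate, with differences of -0.22 and -0.23 for His2Av minus His4r and of -0.21 and -0.36 for His3.3B minus His4r. These differences come from the comparison that chose the genes and were not tested.

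Among all 13963 probes with a value on every array, 0.279% had a lower mean than His3.3B and 0.688% a lower mean than His2Av, against 15.1% for His4r. The low shares of His3.3B and His2Av follow from how they were chosen. On single arrays His3.3B and His2Av were less extreme, above all in replicate 1. There, 9.39% and 16.6% of probes lay below His3.3B on the B52-Cy5 and the B52-Cy3 array, and 8.79% and 14.0% below His2Av. In replicate 2 the shares were 1.04% and 0.917% for His3.3B and 4.66% and 1.96% for His2Av. The low rank of both means thus came with a value of 1 sign on every array more than with an extreme value on any array of replicate 1. For His4r the shares ran from 12.02% to 48.4% over the 4 arrays. The arrays of replicate 1 were also wider, with a median absolute deviation of 0.167 and 0.148 over all probes against 0.082 and 0.089 in replicate 2.

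The spread over 4 arrays can be divided into the comparison, the mean as deposited, and the differences of each of these between replicates. Of the sum of squares of His2Av, 97.3% lay in the comparison, as did 91.8% for His3.3B and 67.5% for His4r, while over all probes the share was 22.6%. The comparison part comes from the same mean by which His2Av and His3.3B were chosen. Their high shares thus follow in part from the choice and only describe them. The rest of His4r lay mainly in the difference between replicates of the mean as deposited, with 27.9%.

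Over all probes, limma called 0% at an adjusted p under 0.05 in the comparison, that is 0 of 13963 probes, with 1808 at an unadjusted p under 0.05. With the probes of a gene averaged, the same fit called 1 of 11173 genes, and no gene of the histone lists described here.

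**Figure D2:**
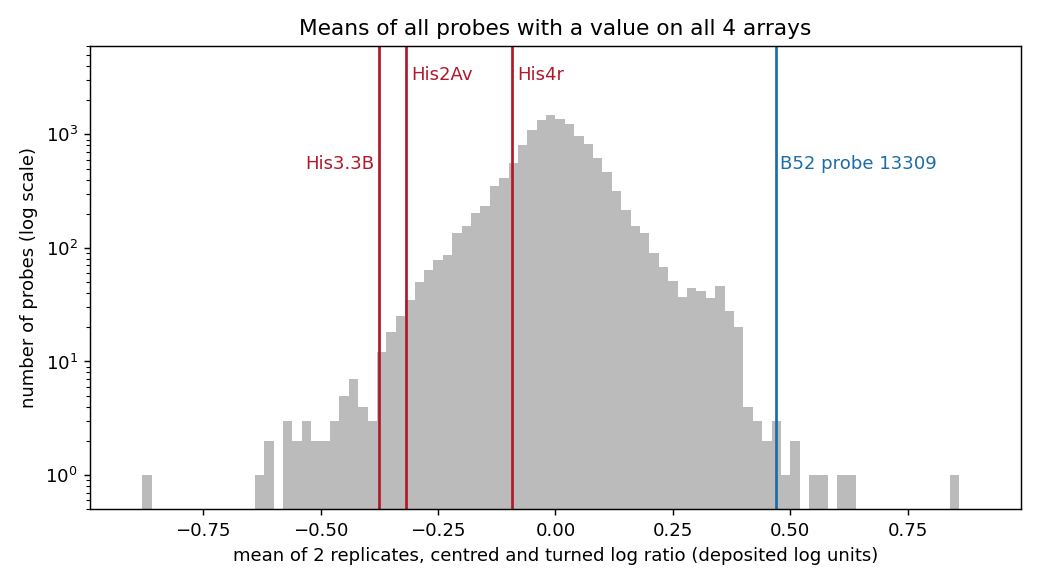
Histogram of the means of 2 replicates for 13963 probes, in deposited log units after centring and turning, with the number of probes on a log axis; red lines mark the histone variants and the blue line B52 probe 13309. His3.3B at -0.38 and His2Av at -0.32, chosen for their distance from 0, lie in the lower tail, and His4r at -0.09 lies on the flank of the main body.

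The mean over the columns as deposited, without turning, was not used to choose the genes. It holds a fixed dye bias if the columns are a ratio of the dyes, and it is itself the comparison of the precipitates if the columns are a ratio of the precipitates. All 3 variants lay close to 0 in it, at -0.01 ± 0.07 for His2Av, 0.0005 ± 0.07 for His3.3B and -0.004 ± 0.08 for His4r (SD, n = 2). None of them passed in limma over all probes, with adjusted p of 0.990, 0.998 and 0.995 in that order, where 0.659% of all probes did. The values below 0 of His2Av and His3.3B therefore hold only if the columns are a ratio of the dyes.

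The replication-dependent histones offer the nearest relatives. Their messenger RNAs lack a poly(A) tail, however, and polyadenylated RNA was compared, so their probes may have read little of that RNA. With ratios and no levels this could not be checked. Of 111 such genes in the gene table of assembly Release 6, 5 had a named probe on all arrays, 1 for each histone type, and as the clustered copies of a type are nearly alike, a probe named for 1 copy may measure others. All 5 means were above 0, between 0.005 and 0.13, with a median of 0.02, while 54.0% of all genes had a mean below 0. The median rested on single arrays: it was 0.205 without the B52-Cy3 array of replicate 1, 0.0733 without that of replicate 2, 0.0058 and 0.0285 without the B52-Cy5 arrays of replicates 1 and 2, and 0.066 and 0.003 without replicate 1 and replicate 2. Only the linker histone gene His1:CG31617 was above 0 on all 4 arrays, as were 5.93% of all genes, with a mean of 0.13 ± 0.10 (SD, n = 2) and an array of replicate 1 at 0.39 while the other 3 lay between 0.02 and 0.08. His3:CG31613, which encodes the replication-dependent form of H3, gave 0.35 and -0.36 on the arrays of replicate 1 and 0.15 and 0.15 on those of replicate 2, for a mean of 0.07 ± 0.11. His2A:CG31618 had a mean of 0.01 ± 0.06, with array values between -0.33 and 0.44. His2B:CG17949 lay at 0.02 ± 0.12 and His4:CG31611 at 0.005 ± 0.003.

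Within replicate 1, His2A and His3 stood at 0.44 and 0.35 on the B52-Cy5 array and at -0.33 and -0.36 on the B52-Cy3 array, and His1 stood at 0.39 and 0.02. His2B, at -0.04 and -0.09, and His4, at 0.002 and 0.004, had close values on these arrays. As deposited, without turning, His2A had a mean of -0.21 and His3 one of -0.18, and the median of the 5 was -0.08. For the H4 protein both kinds of gene were measured, and His4r lay at -0.09 ± 0.03 where His4:CG31611 lay at 0.005 ± 0.003, whose arrays ran from -0.13 to 0.15 and overlapped those of His4r. For H3, the arrays of His3.3B, from -0.52 to -0.23, overlapped those of His3:CG31613, from -0.36 to 0.35, through 1 array of replicate 1. The differences were not tested, and the limit on the probes of the clustered genes holds for them too.

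The genes whose proteins place or exchange histones lay on both sides of 0, and a shift of the group was not tested. Of 29 measured genes of variant deposition and exchange, 10 (34.5%) had a mean below 0, where 54.0% of all genes did. The median was 0.04 against -0.007 over all genes. Without the B52-Cy5 array of replicate 1 the median was 0.0153, without that of replicate 2 it was 0.0285, and without the B52-Cy3 array of replicate 1 it was 0.063. It was 0.047 without the B52-Cy3 array of replicate 2 and 0.033 without replicate 2. Below 0 on all 4 arrays were 4 of them (13.8%), where 8.37% of all genes were. Above 0 on all 4 arrays were 5 (17.2%), where 5.93% of all genes were. CG4236, the gene of a histone-binding protein shared by several chromatin complexes, lay lowest at -0.24 ± 0.08, with arrays at -0.27, -0.10, -0.32 and -0.29. The chaperone gene asf1, whose protein carries H3 and H4, followed at -0.22 ± 0.06 with arrays between -0.33 and -0.09. On the other side lay the nucleosome assembly gene Nap1, at 0.19 ± 0.005 with arrays between 0.10 and 0.28 (SD, n = 2).

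Genes of the processing of histone messenger RNA and of the histone locus body, where the clustered genes are transcribed, showed 9 of 20 means below 0 and a median of 0.008. Of all genes, 54.0% had a mean below 0. With the B52-Cy5 array of replicate 1 or either B52-Cy3 array left out, or without replicate 2, the median fell below 0, to between -0.0151 and -0.0043. Slbp, which encodes the protein that binds the stem-loop of the clustered messenger RNAs, had arrays between 0.12 and 0.19 and a mean of 0.15 ± 0.006. Lsm11, a protein of the U7 particle that helps to cut them, lay on the other side at -0.16 ± 0.09, with arrays between -0.24 and -0.07. SmD3, a core protein of the spliceosomal particles and of the U7 particle, lay at 0.20 ± 0.01 (SD, n = 2), with arrays between 0.06 and 0.36. On all 4 arrays, 2 of the 20 were above 0 and 2 below, where 5.93% and 8.37% of all genes were.

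Of the enzymes and readers of histone lysine methylation, 8 of 16 had a mean below 0, where 54.0% of all genes did, with a median of -0.007. The median was 0.028 and 0.0083 without the B52-Cy5 arrays of replicates 1 and 2, -0.0044 and -0.0275 without the B52-Cy3 arrays, and -0.033 and -0.0195 without replicate 1 and replicate 2. Of these 16, 3 (18.8%) were below 0 on all 4 arrays and 2 (12.5%) above, against 8.37% and 5.93% of all genes. The Polycomb gene esc lay at -0.19 ± 0.07 and CG8409, which encodes heterochromatin protein HP1a, at -0.14 ± 0.02. E(z), the methyltransferase that works with esc, lay at 0.10 ± 0.07 (SD, n = 2). The means of these partners had opposite signs, but each had an array next to 0, at -0.017 for esc and 0.007 for E(z).

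Of the genes of histone acetylation, 13 of 18 (72.2%) had a mean below 0, where 54.0% of all genes did, with a median of -0.02. This was not tested. The median was -0.0899 and -0.0146 without the B52-Cy3 arrays of replicates 1 and 2, and -0.0306 and -0.008 without the B52-Cy5 arrays. Without replicate 2 it was -0.012. On all 4 arrays 3 (16.7%) were below 0 and 1 (5.56%) above, against 8.37% and 5.93% of all genes. HDAC1, a histone deacetylase, lay at -0.25 ± 0.10 with arrays at -0.32, -0.04, -0.33 and -0.31, the adaptor gene Ada2a at -0.22 ± 0.16 and the deacetylase gene Sirt1 at -0.17 ± 0.03 (SD, n = 2). Over the 5 lists the gene means ran from -0.25 to 0.20, and His2Av and His3.3B lay below that range. Both were chosen for lying far from 0 in this comparison, so their place outside the range follows from the choice and only describes them.

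**Figure D3:**
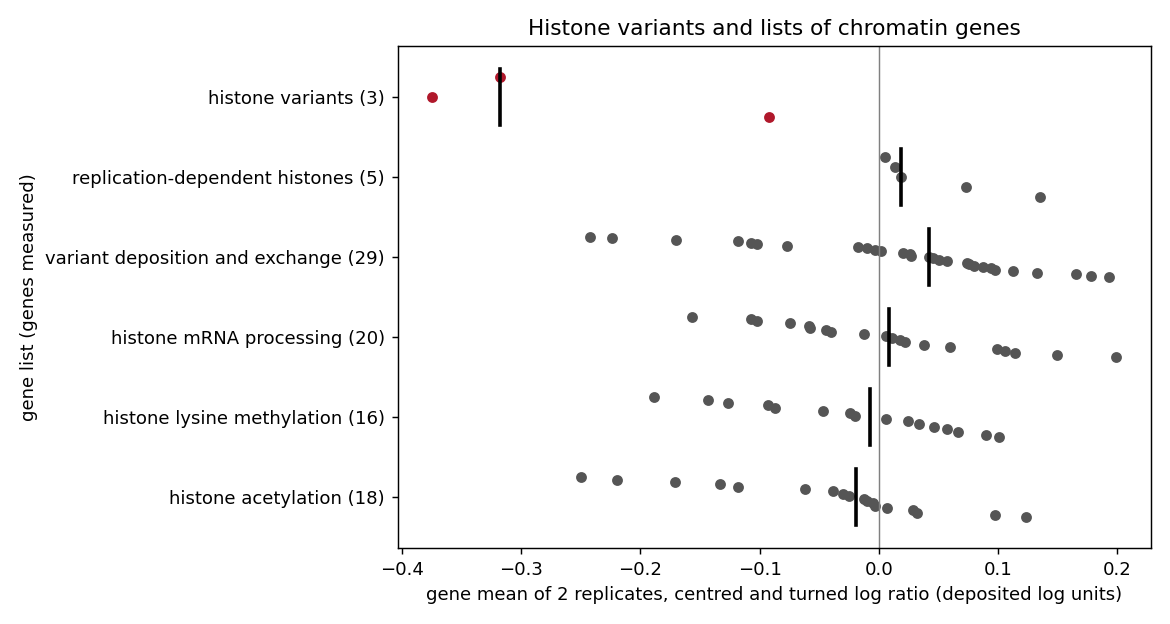
Gene means of 2 replicates, in deposited log units after centring and turning on the horizontal axis, for the measured histone variants (red) and 5 lists of related genes (grey), with 1 point per gene and black bars at the medians. His3.3B and His2Av, chosen for their distance from 0 in this comparison, lie to the left of every gene of the lists, whose means run from -0.25 to 0.20.

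The genes most like each variant were found by the Euclidean distance over the 4 centred and turned arrays. For His2Av they were tkv, a receptor of the BMP ligand Dpp, at a distance of 0.056, CG13896 at 0.058 and Sec61beta, a subunit of the protein channel of the endoplasmic reticulum, at 0.074. Their means were -0.33, -0.30 and -0.29. For His3.3B they were CG6891 at 0.083, pall at 0.102 and the cyclin gene CycH at 0.108, with means of -0.38, -0.34 and -0.35. For His4r they were cas, a zinc finger gene of neuroblasts, at 0.016, pigs at 0.019 and CG2321 at 0.020, with means between -0.09 and -0.08. His2Av and His3.3B stood 0.190 apart. Of all genes, 51 were nearer to His2Av than His3.3B was, and 20 nearer to His3.3B than His2Av was. Both were chosen for lying far from 0, so their closeness follows in part from the choice. His4r stood 0.451 from His2Av and 0.587 from His3.3B. Nearer to His2Av than His4r were 887 genes, and nearer to His3.3B 1019. Nearer to His4r than His2Av were 7546 genes, and nearer to it than His3.3B 9577.

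The genes next to the variants in assembly Release 6, taken by position and not by value, did not all share their side. SPARC, a basement membrane gene beside His2Av, had arrays between 0.16 and 0.33 and a mean of 0.21 ± 0.05. On its other flank, ball lay at 0.09 ± 0.06 with arrays between -0.01 and 0.26. Beside His4r, the receptor gene put had arrays from -0.59 to -0.11 and a mean of -0.36 ± 0.02, lower than His4r itself, while CG7886 lay at -0.03 ± 0.10. Around His3.3A, the overlapping gene Nepl3 lay at -0.06 ± 0.04 and its flanking genes CG14036 and Rpn11 at -0.05 ± 0.08 and 0.007 ± 0.03 (SD, n = 2). Each of these 3 had arrays on both sides of 0. The genes beside His3.3B had no named probe here.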

How the data were processed

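For 15744 probes the authors deposited log ratios between both channels in 1 table, a unit of another kind than counts; no source used here gives the steps before it. Values stay in deposited log units. There were 16 placeholder cells, treated as missing, and between 14788 and 15394 values per array. Column medians lay between 0.002 and 0.006, and whether the values had been centred before is not stated.

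Arrays were centred on their medians, those with B52 in Cy5 were turned, and the orientations of a replicate were averaged, so n is 2. The turning and its sign follow B52 probe 13309 and so were set from values. The design text calls the orientations dye swaps, so the replicate number pairs arrays. Probes with values on all 4 arrays were fitted in limma 3.58.1 under R 4.3.3 (lmFit, eBayes, Benjamini-Hochberg at 0.05); the fit was tested on simulated data. Figures were drawn with matplotlib 3.10.9.

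Probe names came from the platform annotation and the Release 6 gene table, with probes of a gene averaged for the lists. Of the entries of the 5 lists, 3 had no match, and Tip60 is in 2 lists. Named genes were the variants, up to 3 genes per list farthest from 0 among those of 1 sign on all 4 arrays, and the 3 nearest genes by distance; the clustered histones and neighbours were all given. The members and lists were chosen with earlier results of these data known.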

Additional observations from a re-analysis of the deposited data

How the results depend on the processing

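Without turning the arrays, His2Av lay at -0.007, His3.3B at 0.0005 and His4r at -0.00375, and 92 probes were called in limma. Without centring, or with arrays brought to one median absolute deviation, each of the 3 values moved by less than the SD between replicates. With 2 replicates, leaving out either always moves a mean by less than that SD, so it says nothing of stability. With a replicate or an array left out, His2Av ranged from -0.344 to -0.291, His3.3B from -0.476 to -0.274 and His4r from -0.124 to -0.0608. A replicate with a single array cannot separate the dye from the comparison.

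With the replicate block over 4 arrays, 447 probes were called; the fit took a correlation of -0.664 within a replicate, which narrows the standard errors. With genes in place of probes, 1 was called, and 0 with separate arrays, scaled arrays, no centring, at least 1 array per replicate or any array left out. In the mean as deposited, the replicate block gave an adjusted p of 0.990 for His2Av, 0.999 for His3.3B and 0.989 for His4r in limma. The medians of 4 of the 5 lists changed sign without turning and those of 1 or 2 when an array was left out; moves without a change of sign stand beside each list, and the cause was not tested. Signal over background was not analysed here.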
